A study of Mus musculus with 9 samples.

Results

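Mouse spleen libraries labelled CIA were compared with libraries labelled control across all genes of the deposited count table, and the account below covers gene groups other than helper T cell programs, interferon genes and cell markers. The comparison takes 6 of the 9 libraries of the series, 3 per label, chosen by label alone, and 19348 of 56860 genes held enough counts to be tested. All 9 libraries are described as CD4+ T cells of the spleen, from control mice, from CIA mice, or from CIA mice given luteolin, a plant flavone, and the series title names RA. The labels spell out neither CIA nor a strain, genotype, sex, age, time point, mode of disease induction or vehicle for the control mice, and they do not say how the cells were isolated. Nor do they say whether replicates are separate animals or pools, so the p-values reflect only how these samples spread, which may be technical.

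Arthritis models enlarge the pool of activated T cells and of myeloid cells in the spleen, which in mice also makes blood cells. Chemokines draw leukocytes to inflamed joints, cytokines of the IL-1 and TNF families and prostaglandins act on the cells there, and proteases of the matrix metalloproteinase family cut cartilage and connective tissue. Growing lymphocytes in turn make ribosomes, nucleotides and sterols, and secretory cells enlarge the folding machinery of the endoplasmic reticulum.

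The 6 libraries held 31234177 to 40553934 counts. Levels are counts scaled to a common library size (CPM), given for replicates 1, 2 and 3 in that order, and changes are log2 fold changes, CIA minus control, ± SE from edgeR with n = 3 per group. An adjusted p under 0.05 was taken as a change, and 9886 genes passed, 5150 higher and 4736 lower in CIA. The summed CPM of 18 T cell markers was 468 to 517 in the libraries labelled control and 788 to 1260 in CIA, and 16 of the 18 rose. Cd4, the gene that defines the labelled cell type, stood at 3.65, 2.46 and 2.66 CPM in the libraries labelled control and at 82.1, 151 and 150 CPM in CIA, so those control libraries do not carry the defining marker at a level near that of CIA. The 22 neutrophil markers, all tested, summed to 2382 to 2725 CPM against 7379 to 12333 CPM in CIA, with 18 higher. The 16 B cell markers summed to 6305 to 6666 CPM against 2049 to 5426 CPM, with 11 lower, and 15 tested dendritic cell markers to 2826 to 3000 CPM against 689 to 1837 CPM, with 11 lower. Most of the latter sum is MHC class II genes and Cd74, which B cells share (2626 to 2781 CPM against 522 to 1709 CPM), and the other 11 summed to 200 to 219 CPM against 128 to 168 CPM, with 7 lower and 1 higher. Of 23 tested monocyte and macrophage markers 7 rose and 12 fell, while their sum went from 1479 to 1556 CPM up to 2757 to 5387 CPM. Lyz2, Itgam and Hmox1 carry the rise (1123 to 1139 CPM against 2518 to 5053 CPM), and the other 20 summed to 340 to 434 CPM against 239 to 334 CPM, with 4 higher and 12 lower. Among these, the tissue macrophage genes Marco, Cd5l, Mertk and Vcam1 changed by -5.75, -6.01, -4.28 and -3.66. The 4 higher were Axl, Ccr2, Cd163 and Slc40a1 (0.65, 1.48, 1.99 and 0.48), and Adgre1 and Csf1r did not pass. These splits were made after the values were seen. In every library of both labels the T cell sum lay below the neutrophil and B cell sums. No tested marker of these lists was at 0 in all libraries of a group. In such bulk samples fewer cells of a type and less RNA per cell cannot be told apart, and the part of these shifts in each result below was not tested unless a value is given.

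Among the 15 largest rises outside the marker, helper T cell and interferon lists, secreted and matrix genes stood first. Spp1, which encodes osteopontin, a secreted phosphoprotein of bone and of activated leukocytes (chromosome 5, 104582984 to 104588916, plus strand, build mm39), was at 10.7, 10.3 and 18.9 CPM in the libraries labelled control and at 663, 1067 and 3602 CPM in CIA (7.07 ± 0.70, adjusted p = 3.65e-05). CIA replicate 3 was the highest library by far, and without it the change was 6.04. Col5a1, a chain of type V collagen (chromosome 2, 27776437 to 27929526, plus strand), went from 0.2, 0.256 and 0.411 CPM to 21.7, 30.9 and 60.6 CPM (7.05 ± 0.53). In control its counts were 8, 10 and 13, so the fold rests on few reads there. Stfa2, a stefin that inhibits cysteine proteases, was at 0.275, 0.333 and 0.949 CPM and 11.8, 24.5 and 38 CPM (5.63 ± 0.55; 6.33 without control replicate 3). Nos2, the inducible nitric oxide synthase (chromosome 11, 78811613 to 78851080, plus strand), was at 3.88, 3.77 and 7.22 CPM and 52.9, 79.9 and 148 CPM (4.25 ± 0.45, adjusted p = 5.15e-05). In each of these the CIA libraries lay above every library labelled control, as the rule for the ranking required. The groups did not overlap in 58.7% of all tested genes, CIA above in 29.7% and below in 29.1%.

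The other genes of that group of 15 were of mixed kinds. Plagl1, a zinc finger factor that is imprinted, rose by 5.01 ± 0.45 (4.42 without CIA replicate 3), and Esm1, the secreted proteoglycan endocan, by 4.29 ± 0.25. Olfml2b, a secreted olfactomedin-like protein, rose by 4.42 ± 0.33 and Ptpn13, a tyrosine phosphatase, by 4.01 ± 0.33. A pair of striated muscle genes were among them: Neb, which encodes the thin filament protein nebulin, rose from 3.58, 3.25 and 2.85 CPM to 32.8, 39.2 and 73.3 CPM (3.90 ± 0.28), and Tnnt1, slow skeletal troponin T, from 1.9, 1.23 and 2.34 CPM to 17.2, 25.1 and 36.7 CPM (3.86 ± 0.30). The betaine and GABA transporter gene Slc6a12 rose by 3.79 ± 0.42 (3.17 without CIA replicate 3) and the organic anion transporter gene Slco4a1 by 3.65 ± 0.42. Asprv1, a retroviral-like aspartic protease, rose by 3.54 ± 0.20, Spaca6, a sperm membrane protein, by 4.06 ± 0.39 and Ankrd66 by 3.93 ± 0.38. By level, CIA replicate 3 was the highest library in each of these 15 genes.

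**Figure D1:**
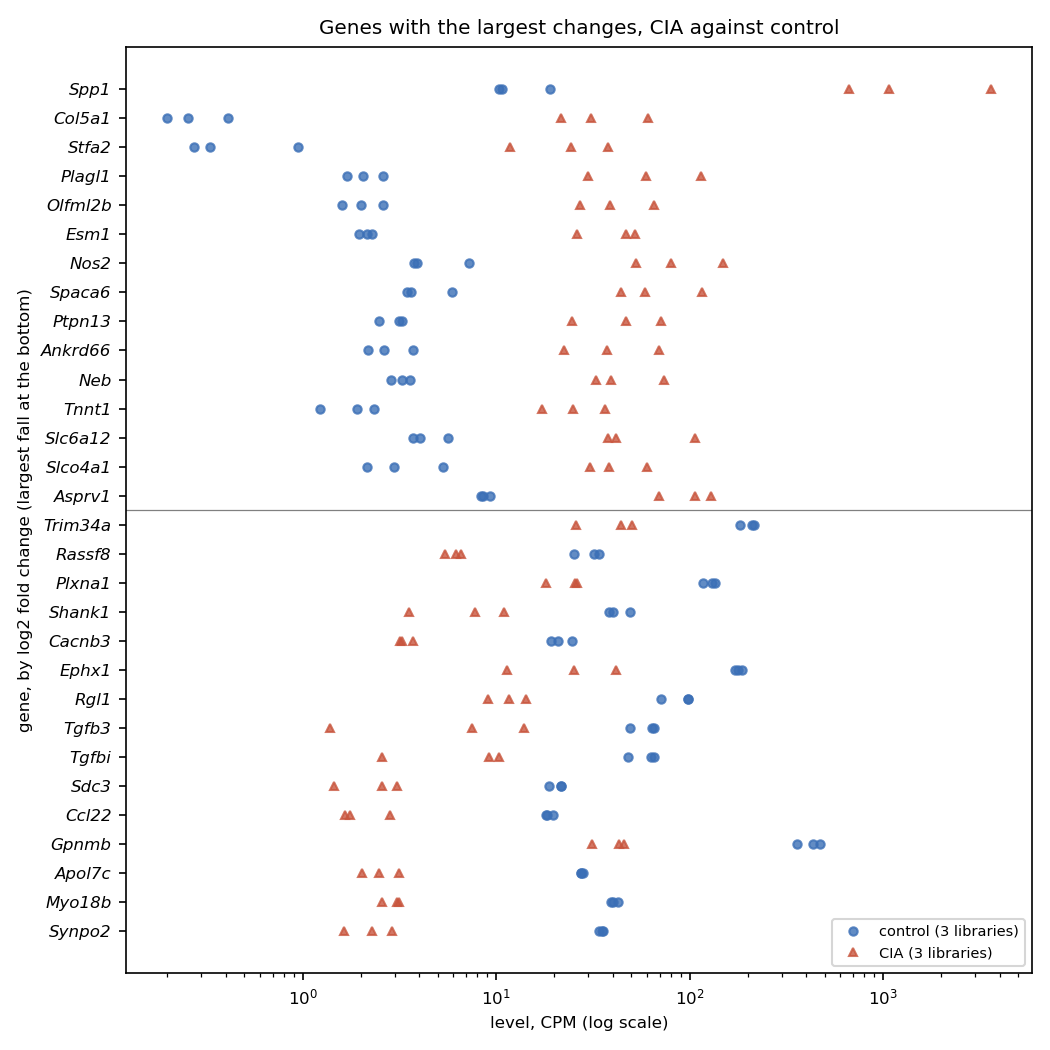
Level in CPM (log scale) of the 15 largest rises and 15 largest falls, with 1 blue circle for each of 3 libraries labelled control and 1 red triangle for each of 3 CIA libraries. The groups do not overlap in any gene, which the rule for choosing them required, and Spp1 spans 663 to 3602 CPM in CIA.

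The 15 largest falls were closer together among the CIA libraries in several cases. Synpo2, an actin-binding protein of the Z-disc, went from 35.3, 34.2 and 35.8 CPM to 2.28, 1.64 and 2.91 CPM (-3.95 ± 0.17, adjusted p = 3.76e-07). Myo18b, an unconventional myosin, went from 39, 42.5 and 40.3 CPM to 3.06, 3.13 and 2.58 CPM (-3.79 ± 0.11). Gpnmb, a membrane glycoprotein of macrophages and dendritic cells, was at 469, 432 and 360 CPM in the libraries labelled control and 43.1, 31.4 and 45.7 CPM in CIA (-3.39 ± 0.15). For these 3 genes the groups were far apart, with little spread within either. Tgfb3, a TGF-beta ligand, and Tgfbi, a matrix protein that TGF-beta induces, fell by 2.96 and 2.98 on the log2 scale. Tgfb3 was uneven in CIA, at 13.9, 7.52 and 1.39 CPM against 65.7, 64.2 and 49 CPM, and was at -3.72 without CIA replicate 1. Ephx1, microsomal epoxide hydrolase, was uneven too, at 41.5, 25.4 and 11.4 CPM in CIA against 177, 186 and 171 CPM (-2.77 ± 0.35). The heparan sulfate proteoglycan gene Sdc3 changed by -3.12 ± 0.22, the plexin gene Plxna1 by -2.46 ± 0.14, the synaptic scaffold gene Shank1 by -2.51 ± 0.31 and the calcium channel subunit gene Cacnb3 by -2.67 ± 0.12. Apol7c, a gene of dendritic cells, changed by -3.43 ± 0.16, Rgl1, a Ral exchange factor, by -2.94 ± 0.17, Rassf8 by -2.33 ± 0.13 and the tripartite motif gene Trim34a by -2.33 ± 0.21. The chemokine gene Ccl22 completes the group and is given with its family below.

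Beyond single genes, 56 lists of pathways and families were described by the number of tested members that passed in each direction. Over all 19348 tested genes 26.6% were higher, 24.5% lower and 51.1% either, with a median change of -0.01, and these shares are the background for every count below. The lists held 1991 distinct genes, 1815 of them tested, and some genes stand in several lists. A member near 0 in control could enter the test through CIA alone, so where members reached the count filter's level in all libraries of only 1 group, the counts are also given for members that reached it in all 6 libraries. Among the 15902 tested genes of that kind 26.1% were higher and 27.2% lower.

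**Figure D2:**
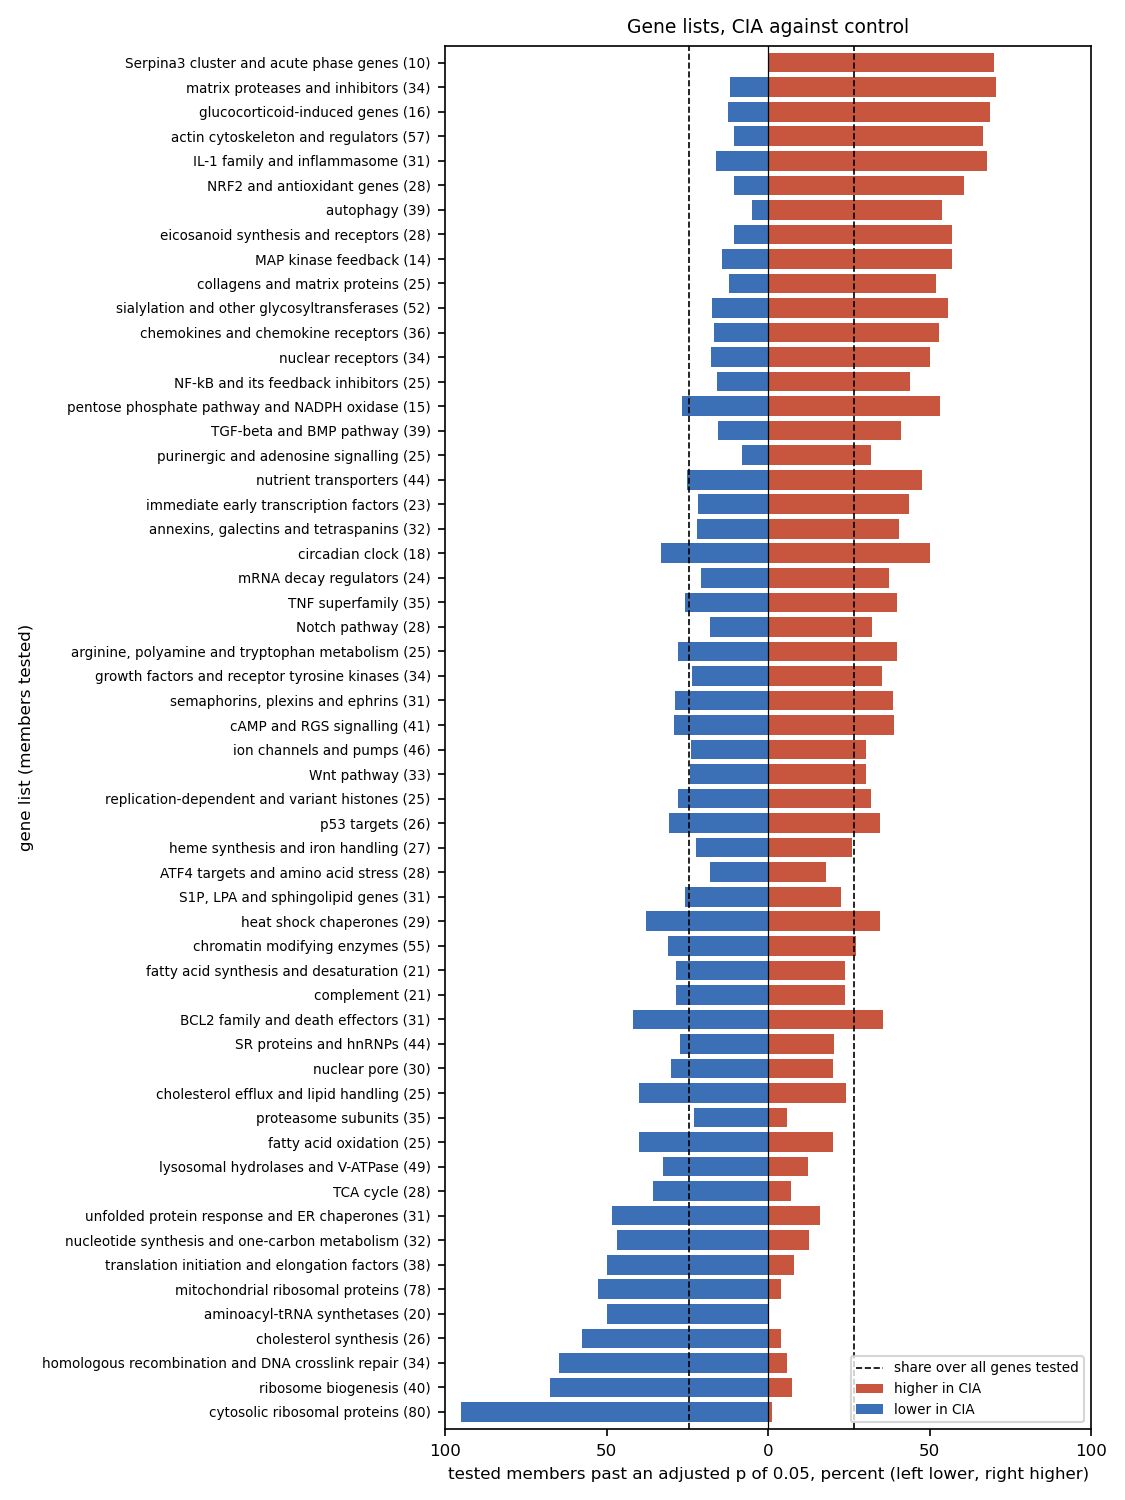
Percent of the tested members of each of 56 gene lists that passed an adjusted p of 0.05, higher in CIA to the right in red and lower to the left in blue, ordered by the difference of the 2 shares and with members tested in brackets. The dashed lines are the shares over all genes tested, 26.6% and 24.5%, and the cytosolic ribosomal proteins at the bottom have 95% of members lower.

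Genes of the extracellular matrix and of its turnover were mostly higher. Of 25 tested collagens and matrix proteins (of 38 listed), 13 rose and 3 fell. Among the 16 that reached the filter's level in every library 9 rose and 2 fell, with a median of 0.91. Over all tested members 1 fell without CIA replicate 2, without control replicate 1 or 2, and with a minimum count of 50. Thrombospondin 1, a matrix glycoprotein of platelets and monocytes that can activate latent TGF-beta, is encoded by Thbs1, which went from 194, 221 and 232 CPM to 1102, 1601 and 2770 CPM (3.08 ± 0.27). Tenascin C, which appears in inflamed and healing tissue, is encoded by Tnc, at 0.15, 0.41 and 0.475 CPM against 2.39, 4.1 and 4.76 CPM (3.46 ± 0.37). Col24a1, a fibrillar collagen gene, went from 0.05, 0.154 and 0.38 CPM to 10.8, 22.7 and 24.8 CPM (6.71 ± 0.48; 7.53 without control replicate 3). Col1a1, of type I, was at 2.5, 2.92 and 3.8 CPM and 3.89, 5.21 and 7.77 CPM (0.87 ± 0.28, adjusted p = 0.0227), a call lost without CIA replicate 3 (0.58) and without control replicate 1 (0.74) or 2 (0.83), and the other chain of that type, Col1a2, did not pass. Col15a1, of type XV, fell from 13.9, 14.2 and 8.45 CPM to 0.556, 0.468 and 0.529 CPM. The chains of type IV tested here went both ways. Col4a2 rose from 2.2, 2.18 and 2.5 CPM to 2.31, 4.89 and 6.05 CPM (0.94 ± 0.29, adjusted p = 0.0188), with CIA replicate 1 inside the range of control, and Col4a1 passed narrowly in the lower direction (-0.64 ± 0.24, adjusted p = 0.0462) and lost the call when any library other than CIA replicate 3 was left out (-0.43 to -0.66). Of 20 listed markers of stroma and endothelium 10 were tested, 4 of them higher and 1 lower. The 20 summed to 105 CPM in each library labelled control and 108 to 146 CPM in CIA. Most of that sum is Pecam1, which did not pass (89.2, 86.9 and 84.9 CPM against 77.6, 73.9 and 79.9 CPM). Acta2 carries the rise of the sum (2.63, 3.61 and 3.67 CPM against 20.7, 32.1 and 44 CPM), and Kdr fell (-2.57). Col1a1 is one of these markers, and this split was made after the values were seen.

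Matrix proteases and their inhibitors also rose in most members. Of 34 tested, 24 rose and 4 fell, and of the 27 at the filter's level in every library 18 rose and 3 fell (median 0.75). The collagenase gene Mmp13, a cartilage-degrading enzyme of arthritic joints, was at 0.2, 0.538 and 0.316 CPM in the libraries labelled control and 5.17, 14.2 and 27.6 CPM in CIA (5.46 ± 0.66, adjusted p = 0.000119; 4.77 without CIA replicate 3). Its counts were 8, 21 and 10 in control and 186, 487 and 833 in CIA. Mmp12, macrophage elastase, went from 0.925, 0.768 and 0.696 CPM to 4.53, 2.4 and 7.54 CPM (2.58 ± 0.39). Mmp8, neutrophil collagenase and one of the neutrophil markers above, went from 173, 215 and 280 CPM to 973, 1526 and 1414 CPM (2.55 ± 0.19). Timp3, an inhibitor of metalloproteinases, rose as well, from 0.4, 0.256 and 0.19 CPM to 5.42, 8.51 and 13.6 CPM (4.97 ± 0.39). On the plasminogen side, Serpinb2, an intracellular inhibitor of plasminogen activators, went from 1.18, 0.845 and 1.27 CPM to 9.03, 13.7 and 32.5 CPM (4.07 ± 0.46; 3.38 without CIA replicate 3). Plaur, the urokinase receptor gene, was at 99.4, 81.7 and 76.4 CPM and 105, 132 and 228 CPM (0.85 ± 0.23, adjusted p = 0.0109), where CIA replicate 1 was only just above control. The membrane-bound metalloproteinase gene Mmp14 fell from 29.4, 28.1 and 21.7 CPM to 9.76, 6.17 and 11.5 CPM (-1.53 ± 0.20) and Adam19 changed by -0.54 ± 0.08.

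Promoters of these genes were searched for the AP-1 site, letters TGANTCA, which reads the same on both strands and binds Fos and Jun proteins. The windows run from 250 bases before to 50 bases after the start of transcription, from RefSeq (GRCm38.p6), and 6.71% of 11772 genes with such a window hold the site. Of 21 list members with a window 5 hold it: 4 of 16 that rose (Mmp12, Mmp13, Plaur and Serpinb2), 1 of 3 that fell (Adam19) and 0 of 2 that did not pass. The stretches around 3 of them are shown, since they belong to a collagenase, an elastase and the urokinase receptor, with the site in capitals. They lie at chr9:7272449-7272513 for Mmp13, chr9:7347300-7347366 for Mmp12 and chr7:24462384-24462450 for Plaur, all on the plus strand, and the sites begin at positions -35, -44 and -69 from the start of transcription.
Mmp13: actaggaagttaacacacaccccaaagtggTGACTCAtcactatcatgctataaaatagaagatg
Mmp12: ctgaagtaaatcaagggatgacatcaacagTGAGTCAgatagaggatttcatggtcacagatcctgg
Plaur: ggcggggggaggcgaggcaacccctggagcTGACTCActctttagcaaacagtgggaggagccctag
In all, 12 pairs of a motif and a list were searched, and the 3 pairs shown here and below were picked after the matches were seen. A match describes the letters and is no evidence of binding.

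The neutrophil-attracting chemokine genes Cxcl1, Cxcl2 and Cxcl3 rose, while Ccl22 and Cxcl16 were among the members that fell. Of 36 tested chemokine and receptor genes (of 53 listed), 19 rose and 6 fell, and of the 28 at the filter's level in every library 16 rose and 6 fell (median 0.76). Cxcl2, a ligand of the neutrophil receptor CXCR2, was at 279, 271 and 252 CPM in the libraries labelled control and 608, 936 and 1815 CPM in CIA (2.07 ± 0.32, adjusted p = 0.000461). Its neighbours in the same cluster on chromosome 5, Cxcl1 and Cxcl3, went from 9.6, 7.12 and 7.79 CPM to 19, 19.2 and 44.4 CPM (1.75 ± 0.36) and from 6, 5.99 and 5.6 CPM to 29.8, 38.1 and 77 CPM (3.04 ± 0.33). CIA replicate 3 was the highest library for each of the 3, and replicates 1 and 2 were also above all libraries labelled control. The receptor gene Cxcr2, itself a neutrophil marker, rose by 2.38 ± 0.15. The macrophage chemokine genes Ccl3 and Ccl4 rose by 1.90 ± 0.30 and 2.22 ± 0.36, Ccl6 by 2.58 ± 0.18 and Ccl9 by 2.52 ± 0.29, with 34.7% of the exonic bases of Ccl3 shared with another gene. Ccl22, made by dendritic cells and drawing regulatory T cells through CCR4, fell from 18.1, 18.3 and 19.6 CPM to 2.84, 1.76 and 1.65 CPM (-3.15 ± 0.18). Cxcl16, a membrane-bound chemokine, fell from 43.2, 42.9 and 39.1 CPM to 9.53, 7.69 and 12.4 CPM (-2.08 ± 0.15). The falls stood beside the lower dendritic cell markers, with and without class II genes, and the rises beside the higher sum of neutrophil markers given above.

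The Cxcl1, Cxcl2 and Cxcl3 windows each hold an NF-kB site, searched on both strands as GGGA, any base, TT, any base and CC, which 1.73% of the 11772 windows hold. In the chemokine list 5 of 28 members with a window hold it, 3 of 16 that rose, 0 of 3 that fell and 2 of 9 that did not pass. They are printed because the 3 genes rose together and carry the same 10 letters, which begin at positions -71, -97 and -73 from the start of transcription. The stretches lie at chr5:90891144-90891213, chr5:90903772-90903841 and chr5:90785998-90786067 on the plus strand of GRCm38.p6, from RefSeq, with the site in capitals.
Cxcl1: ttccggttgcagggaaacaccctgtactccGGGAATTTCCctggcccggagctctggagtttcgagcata
Cxcl2: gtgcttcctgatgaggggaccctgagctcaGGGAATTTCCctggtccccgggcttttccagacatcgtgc
Cxcl3: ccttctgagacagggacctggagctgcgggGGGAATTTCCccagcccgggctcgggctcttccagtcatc
In the list of NF-kB genes and their feedback inhibitors 9 of 21 members with a window hold the site, 4 of 9 that rose, 0 of 2 that fell and 5 of 10 that did not pass.

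**Figure D3:**
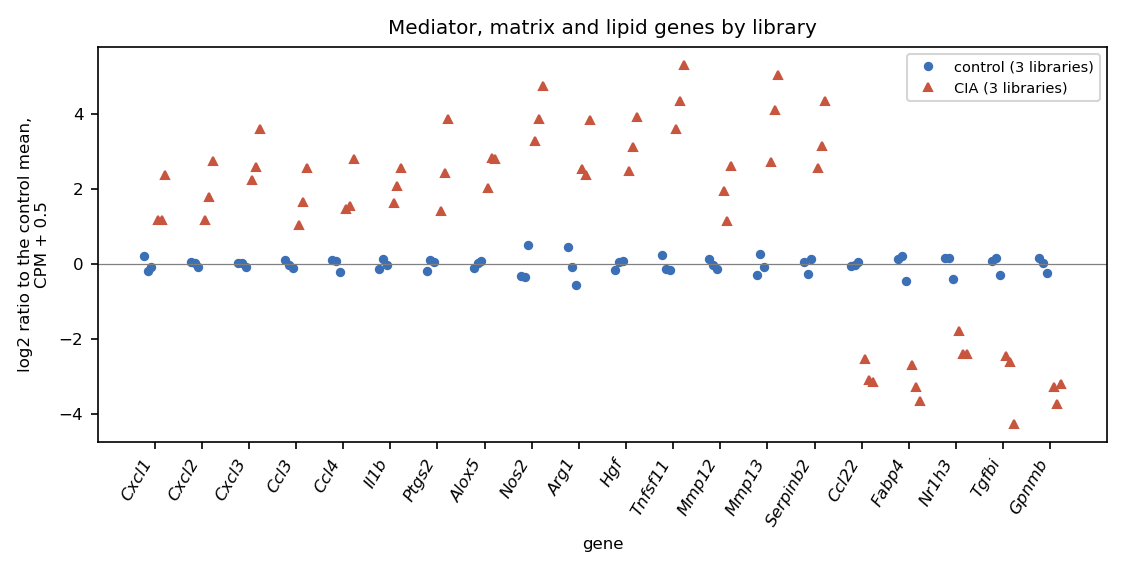
Log2 ratio of each library to the mean of the 3 libraries labelled control, on CPM + 0.5, for 20 mediator, matrix and lipid genes picked with their values known, with blue circles for control and red triangles for CIA. The CIA triangles lie above every control circle in the 15 genes to the left and below in the 5 to the right, and CIA replicate 3 is the highest in the 15 except for Alox5.

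The IL-1 family and its receptors rose in most members. Of 31 tested, all at the filter's level in every library, 21 rose and 5 fell (median 0.67). Il1b, the secreted cytokine, went from 73.1, 89.2 and 79.2 CPM to 249, 342 and 484 CPM (2.15 ± 0.23) and Nlrp3, the sensor whose inflammasome matures it, from 37.8, 35 and 43 CPM to 84.1, 99.7 and 162 CPM (1.58 ± 0.21). Its sister cytokine gene Il1a was at 21.4, 24.9 and 22.4 CPM and 25.3, 31.9 and 68.3 CPM (0.87 ± 0.31, adjusted p = 0.0388). Its call rests on CIA replicate 3, without which the change was 0.32, and was also lost in 3 fits without 1 library labelled control (0.81 to 0.93), with DESeq2 (0.88) and in the fit of 6 libraries (0.88). Among the receptors Il1rl1, the receptor of IL-33, rose by 3.81 ± 0.43 (3.21 without CIA replicate 3) and Il18rap, the accessory chain for IL-18, from 15.5, 16.3 and 17.2 CPM to 79.1, 132 and 153 CPM (2.90 ± 0.20). Gsdmd, the pore-forming gasdermin that inflammasomes cleave, went the other way, from 51.4, 51.7 and 42.5 CPM to 26.9, 29.5 and 24.8 CPM (-0.84 ± 0.10), as did the flagellin sensor gene Naip5 (-0.77 ± 0.12).

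In the TNF superfamily 14 of 35 tested members rose and 9 fell, or 13 and 7 of the 31 at the filter's level throughout. Tnfsf11, which encodes RANKL, the osteoclast differentiation factor made by activated T cells among others (chromosome 14, 78514885 to 78545483, minus strand), was at 0.4, 0.205 and 0.19 CPM in the libraries labelled control, from 16, 8 and 6 reads, and 8.9, 15.2 and 30.1 CPM in CIA (6.04 ± 0.52, adjusted p = 1.58e-05). Every CIA library was far above control, and replicate 3 was the highest. The decoy receptor gene Tnfrsf23 rose by 2.84 ± 0.34. Tnf itself did not pass, at 43.6, 41.8 and 38.5 CPM and 40.1, 51 and 84.1 CPM (0.50 ± 0.22, adjusted p = 0.086), and the groups overlapped. It passed without CIA replicate 1, at 0.70, and without a filter on low counts, at 0.48. Cd40 and Tnfrsf13b, receptors of B cells for help and survival signals, changed by -1.58 ± 0.34 and -1.26 ± 0.26, with CIA replicate 3 the lowest in both, as it was for the summed B cell markers.

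Lipid mediator genes were mostly higher. In the eicosanoid list 16 of 28 tested members rose and 3 fell, and of the 20 at the filter's level throughout 11 rose and 2 fell (median 0.63). Ptgs2, the inducible cyclooxygenase that anti-inflammatory drugs block, went from 6.68, 8.2 and 7.85 CPM to 21.2, 43 and 118 CPM (8.01-fold, adjusted p = 0.000724). The 3 CIA libraries were widely spread, all above control, and without replicate 3 the log2 change was 2.09. The leukotriene pair Alox5 and Alox5ap, 5-lipoxygenase and its activating protein, rose from 5.33, 5.89 and 6.14 CPM to 25.3, 44.4 and 43.5 CPM (2.70 ± 0.20) and from 27.5, 30.4 and 32.4 CPM to 97.2, 144 and 157 CPM (2.14 ± 0.16). Hpgds, which makes prostaglandin D2, fell from 81.8, 81 and 79.4 CPM to 27.4, 19.4 and 13 CPM (-2.02 ± 0.20), and the prostacyclin receptor gene Ptgir by 1.26 on the log2 scale. Alox5 also stands in the mast cell and basophil marker list, of which 13 members were tested (10 higher, 1 lower). The 15 listed genes summed to 37 to 38.6 CPM in control and 115 to 207 CPM in CIA. Much of that sum and of its rise is Alox5 itself and Hdc (8.2, 8.27 and 12.5 CPM against 37.1, 52.9 and 74.8 CPM). The sum is thus not separate from Alox5.

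The tested acute phase genes that passed were all higher, while complement and growth factor genes went both ways. Of 26 listed Serpina3 and acute phase genes only 10 were tested, and 7 of those rose and 0 fell (1 fell without CIA replicate 2 or control replicate 3, with a replicate block and without a filter on low counts), and of the 7 at the filter's level in every library 5 rose and 0 fell. Haptoglobin, which binds free hemoglobin, is encoded by Hp, which went from 46.6, 45.8 and 53.7 CPM to 158, 208 and 210 CPM (1.98 ± 0.13). In the complement list 5 of 21 tested members rose (23.8%) and 6 fell (28.6%), near the background, and of the 15 at the filter's level in every library 5 rose and 3 fell. C3, the central component, went from 472, 463 and 499 CPM to 1522, 2449 and 3047 CPM (2.29 ± 0.20), and the C5a receptor genes C5ar1 and C5ar2 rose by 1.61 ± 0.19 and 2.73 ± 0.21. Cfb, the factor B gene of the alternative pathway, was at 70.5, 63.3 and 57.7 CPM and 14.9, 7.08 and 19.8 CPM (-2.20 ± 0.29), and 79.5% of its exonic sequence also belongs to another gene.

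Among growth factors and receptor tyrosine kinases 12 of 34 tested members rose and 8 fell, and of the 25 at the filter's level in every library 8 rose and 6 fell. Hgf, a growth factor for epithelial cells, and Angpt1, a ligand of the endothelial receptor TIE2, were low in control, at 0.5, 0.666 and 0.696 CPM and 0.4, 0.512 and 0.19 CPM. They reached 5.81, 9.33 and 16.5 CPM (4.08 ± 0.37) and 4.59, 6.84 and 7.74 CPM (4.07 ± 0.30) in CIA. Osm, oncostatin M, rose by 1.64 ± 0.23 and Igf1r by 1.52 ± 0.20. Csf1, the macrophage growth factor, fell from 33.3, 36.6 and 30.9 CPM to 11.3, 13 and 17.2 CPM (-1.28 ± 0.14). Flt3 and Kdr, receptors that are also on the dendritic cell and endothelium marker lists, changed by -2.35 ± 0.15 and -2.57 ± 0.21. Vegfa was at 192, 187 and 168 CPM and 155, 211 and 339 CPM and did not pass (0.37 ± 0.22, adjusted p = 0.176), though it did without CIA replicate 1 (0.59) and without a filter on low counts (0.35).

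Signalling genes induced soon after stimulation changed in both directions by family. In the list of immediate early factors 10 of 23 rose and 5 fell. Partners of the AP-1 dimer rose: Fosl2 from 22.4, 23.1 and 23.9 CPM to 89.5, 141 and 207 CPM (2.66 ± 0.24), Jun by 1.30 ± 0.20 and Junb by 0.89 ± 0.16. Fos itself was at 10.2, 9.66 and 5 CPM and 8.53, 10.2 and 10.6 CPM, overlapping (0.23 ± 0.22, adjusted p = 0.4). The zinc finger factors of antigen receptor signalling fell: Egr2 went from 9.43, 10.2 and 9.15 CPM to 5.42, 2.52 and 2.78 CPM (-1.42 ± 0.25), and Egr3 from 27.8, 29.7 and 29.6 CPM to 16.5, 8.34 and 2.51 CPM (-1.66 ± 0.45; -2.41 without CIA replicate 1). Egr3 was lowest in CIA replicate 3 and nearest to control in CIA replicate 1. Myc, a transcription factor of cell growth, did not pass (-0.37 ± 0.19, adjusted p = 0.121) but did without CIA replicate 1 (-0.65), with a replicate block (-0.40) and without a filter on low counts (-0.38).

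Inhibitors that restrain these signals were also split. Of 14 tested genes of MAP kinase feedback 8 rose and 2 fell, or 7 and 2 of the 13 at the filter's level throughout, and 1 fell without CIA replicate 2 or control replicate 1 or 3. Spred2, which blocks Raf activation, rose from 3.93, 3.25 and 2.72 CPM to 13.4, 16.8 and 22.2 CPM (2.40 ± 0.21), whereas the nuclear phosphatase gene Dusp4 fell by 0.94 on the log2 scale. In the NF-kB list 11 of 25 rose and 4 fell. Nfkbiz, an atypical inhibitor that also activates secondary response genes, went from 51.1, 54 and 57.8 CPM to 137, 204 and 358 CPM (2.10 ± 0.27). The classical feedback inhibitors Nfkbia and Tnfaip3 rose by 1.17 ± 0.17 and 1.25 ± 0.18. Relb and Nfkbie fell, from 46.2, 51.5 and 51.7 CPM to 26.4, 26.5 and 27.1 CPM (-0.90 ± 0.08) and from 109, 104 and 105 CPM to 50.6, 41.6 and 34.2 CPM (-1.33 ± 0.12). Members of the NF-kB list thus passed in both directions.

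Genes that glucocorticoids induce were called higher in 11 of 16 tested members and lower in 2, or 10 and 2 of the 14 at the filter's level throughout (median 0.74). Klf9 rose by 1.24 ± 0.17 and Anxa1, which encodes an anti-inflammatory annexin, by 1.10 ± 0.14. Tsc22d3 (GILZ) and Sgk1, often used as readouts of the hormone, changed by -0.71 ± 0.10 and -0.87 ± 0.16. Of the 18 circadian clock genes 9 rose and 6 fell, or 7 and 6 of the 16 at the filter's level throughout. Nfil3 went from 25.8, 25.8 and 28.5 CPM to 68.4, 97.7 and 160 CPM (2.02 ± 0.25) and Per1 rose by 0.90 ± 0.14, while Per3 and Bhlhe41 changed by -0.73 ± 0.13 and -0.83 ± 0.15. Among regulators of mRNA decay 9 of 24 rose and 5 fell, or 3 without control replicate 3 and in the fit of 6 libraries. Zfp36l2, which binds AU-rich elements, rose 2-fold, and the RNase gene Zc3h12d fell by 0.62 on the log2 scale.

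The protein synthesis machinery was lower as a group, by small steps. Of 80 tested cytosolic ribosomal proteins 76 fell and 1 rose (0 with a minimum count of 50), with a median of -0.69. In single CIA libraries the median log2 ratio of this list to the control mean was -0.48, -0.71 and -0.90, so each library was below control and replicate 3 the furthest. Rpsa, a small subunit protein and laminin-binding protein, went from 954, 919 and 906 CPM to 536, 432 and 344 CPM (-1.08 ± 0.13, adjusted p = 0.000113). Rplp0, a protein of the ribosomal stalk often used as a reference gene, went from 299, 299 and 311 CPM to 213, 194 and 182 CPM (-0.62 ± 0.07). The 1 member that rose was Rpl3l, a muscle paralog of Rpl3 (1.58). Ribosomal protein genes have many processed copies in the genome, and how reads that match several places were counted is not stated, so the values of single members are uncertain.

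Ribosome assembly went the same way. Of 40 tested ribosome biogenesis genes 27 fell and 3 rose (median -0.38). Npm1, a nucleolar chaperone, fell from 2091, 1916 and 1836 CPM to 1142, 851 and 726 CPM (-1.10 ± 0.14), Ubtf, the RNA polymerase I factor, from 443, 420 and 372 CPM to 220, 198 and 155 CPM (-1.11 ± 0.12) and Utp20, part of the small subunit processome, by 1.13 on the log2 scale. Wdr12, a large subunit assembly factor, rose instead, from 52.4, 52 and 58 CPM to 98.3, 134 and 161 CPM (1.28 ± 0.15). Translation factors had 19 of 38 tested members lower and 3 higher, a count of lower members that became 12 without CIA replicate 2 and 12 in a fit of only the 6 libraries. Eef1g, an elongation factor subunit, changed by -0.70 ± 0.15 and Eif3e, an initiation factor subunit, by -0.68 ± 0.15. Eif4ebp1, the repressor of cap-dependent initiation, rose from 55.3, 65.7 and 69.5 CPM to 113, 132 and 175 CPM (1.14 ± 0.15). Of 20 aminoacyl-tRNA synthetases, which load amino acids on tRNA, 10 fell and 0 rose, with the valine and leucine enzymes Vars and Lars at -0.70 ± 0.19 and -0.67 ± 0.11. Over the alternatives run, 8 to 11 synthetases fell and 0 to 2 rose.

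Mitochondrial ribosomes showed a smaller shift, with 41 of 78 tested proteins lower and 3 higher (median -0.36). Mrpl27 fell from 11.6, 10.5 and 7.82 CPM to 4.81, 4.68 and 3.84 CPM (-1.16 ± 0.16), and Mrps6 rose from 4.6, 4 and 3.99 CPM to 7.59, 12 and 23 CPM (1.75 ± 0.36). The proteasome, which degrades proteins, was near the background in the lower direction with 8 of 35 subunits lower (22.9%), and 2 higher. The number lower was 3 without control replicate 2, 4 without CIA replicate 2, 4 in the fit of 6 libraries and 5 without a filter on low counts. Psmb6, a catalytic subunit, changed by -0.56 ± 0.10. Beside all of these stood the lower B cell and class II sums, and for both kinds of ribosomal protein the median of CIA replicate 3 was the furthest from control.

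**Figure D4:**
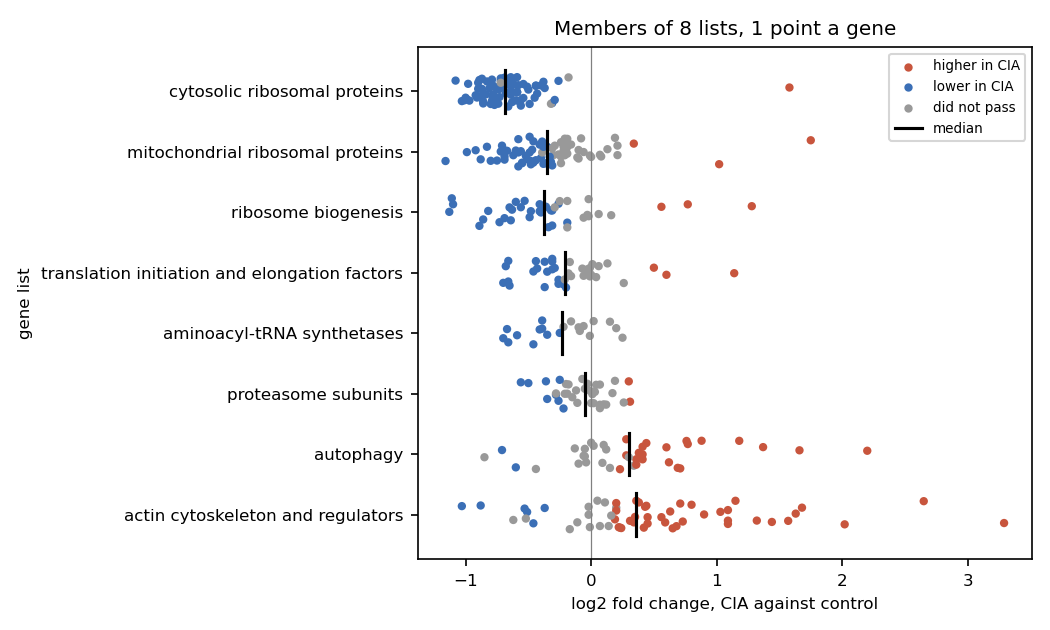
Log2 fold change, CIA against control, of every tested member of 8 lists, 1 point a gene, in red or blue where it passed an adjusted p of 0.05 and grey where it did not, with a black bar at the median. The cytosolic ribosomal proteins lie almost wholly left of 0 around a median of -0.69, and the autophagy and actin lists lie mostly to the right, at medians of 0.30 and 0.36.

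Several chaperones of the endoplasmic reticulum fell, while the regulators Xbp1 and Eif2ak3 rose. Of 31 tested genes of the unfolded protein response 15 fell and 5 rose (median -0.23), with 3 higher without control replicate 1 or 2 and in the fit of 6 libraries. Hsp90b1, the resident HSP90 paralog, was at 2738, 2562 and 2364 CPM in the libraries labelled control and 1892, 1758 and 1800 CPM in CIA (-0.49 ± 0.07). Pdia4 and Pdia6, which form disulfide bonds, went from 835, 673 and 640 CPM to 472, 398 and 364 CPM (-0.80 ± 0.12) and from 179, 183 and 176 CPM to 150, 142 and 141 CPM (-0.32 ± 0.07). Creld2, a secreted chaperone, went from 63.8, 66.3 and 64.2 CPM to 50.1, 49.1 and 51.5 CPM (-0.37 ± 0.07). These falls were small but the CIA libraries were all below control. Xbp1, the transcription factor of the pathway, rose from 177, 174 and 173 CPM to 306, 297 and 376 CPM (0.90 ± 0.10), and the sensor kinase gene Eif2ak3 from 147, 142 and 175 CPM to 280, 218 and 186 CPM (0.56 ± 0.14). Hspa5, the chaperone BiP, did not pass (479, 439 and 417 CPM and 376, 396 and 588 CPM), with CIA replicate 3 above and replicates 1 and 2 below all libraries labelled control (0.03 ± 0.14, adjusted p = 0.889). Without CIA replicate 3 it passed in the lower direction, at -0.20. Of the 11 plasma cell markers, which include Xbp1, 10 were tested, with 3 higher and 2 lower, and their sum was 452 to 498 CPM in control and 571 to 634 CPM in CIA. Much of that sum and of its rise is Xbp1 itself, at the levels given above, so the sum is not separate from it. Of the other markers Jchain and Prdm1 rose (1.04 and 0.50), and Sdc1 and Derl3 fell (-1.37 and -0.92).

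The ER stress element, searched on both strands as CCAAT and CCACG with 9 unspecified bases between them, is the site through which ATF6 and XBP1 act on chaperone genes. It is present in 0.17% of the 11772 windows and in 9 of 25 members of this list with a window: 6 of 11 that fell, 0 of 5 that rose and 3 of 9 that did not pass. The stretches around it in Hsp90b1, Creld2 and Pdia6 are shown because these 3 genes fell and hold it, at chr10:86705503-86705581 (minus strand), chr15:88819490-88819568 and chr12:17266461-17266539 (plus strand) of GRCm38.p6, from RefSeq. The element is in capitals, and in Hsp90b1 and Creld2 it lies on the strand opposite to the gene, so that the letters read in reverse complement.
Hsp90b1: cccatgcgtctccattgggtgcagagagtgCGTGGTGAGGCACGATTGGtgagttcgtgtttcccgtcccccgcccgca
Creld2: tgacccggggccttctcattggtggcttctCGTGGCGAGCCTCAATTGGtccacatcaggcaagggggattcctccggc
Pdia6: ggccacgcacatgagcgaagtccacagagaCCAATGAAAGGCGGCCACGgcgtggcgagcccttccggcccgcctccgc
Hsp90b1 holds 2 such elements upstream of its start, of which the one shown begins at position -107.

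Heat shock genes were split, with inducible HSP70 genes higher and the mitochondrial chaperonin lower. Of 29 tested, 10 rose and 11 fell. The inducible HSP70 genes Hspa1b and Hspa1a went from 3.2, 3.43 and 3.83 CPM to 19.7, 15.6 and 56.3 CPM (3.13 ± 0.50) and from 1.6, 0.973 and 1.33 CPM to 5.7, 6.06 and 18 CPM (2.92 ± 0.52). CIA replicate 3 stood far above the other CIA libraries in both, and without it the changes were 2.35 and 2.18. These are near-identical copies whose reads could be split between them. Hsph1, a cochaperone, rose from 195, 173 and 185 CPM to 393, 361 and 572 CPM (1.26 ± 0.15). The mitochondrial chaperonin pair Hspd1 and Hspe1 fell from 324, 317 and 289 CPM to 229, 186 and 172 CPM (-0.66 ± 0.10) and from 174, 148 and 131 CPM to 84.5, 61.2 and 53.8 CPM (-1.18 ± 0.16). The count of rising members was 6 in the fit of only the 6 libraries and without control replicate 1 or 2.

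Targets of ATF4, which answers a lack of amino acids, had 5 of 28 higher and 5 lower. Without CIA replicate 1 there were 11 higher and 8 lower, and without control replicate 2 there were 2 higher. Without control replicate 1 or 3, and in the fit of 6 libraries, there were 3 higher and 3 lower, and without CIA replicate 2 there were 3 lower. Slc38a2, a glutamine transporter, rose from 141, 144 and 223 CPM to 482, 449 and 776 CPM (1.75 ± 0.23), and the serine synthesis gene Phgdh fell from 86.6, 90.9 and 93.8 CPM to 69.4, 47.6 and 35.2 CPM (-0.83 ± 0.19).

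Genes of sterol synthesis were mostly lower. Of 26 tested genes of cholesterol synthesis 15 fell and 1 rose (median -0.39). Hmgcs1, an early enzyme of the mevalonate pathway, went from 105, 101 and 108 CPM to 66.7, 62.8 and 57.2 CPM (-0.75 ± 0.08, adjusted p = 5.96e-05), Mvk, a kinase of the same pathway, from 4.38, 4.25 and 4.84 CPM to 2.61, 2.57 and 2.05 CPM (-0.89 ± 0.15) and Sqle, squalene epoxidase, from 24.1, 26.6 and 27.1 CPM to 18.7, 18.4 and 17.2 CPM (-0.52 ± 0.09). Fdft1 was the 1 member higher, at 0.30 ± 0.10, and it lost the call under 6 alternatives (0.23 to 0.31). Without CIA replicate 1 there were 2 higher members.

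The cholesterol exporter gene Abca1 fell and the lipid droplet gene Plin2 rose. In the list of cholesterol efflux and lipid handling 10 of 25 tested members fell and 6 rose. Abca1 went from 66.2, 63.3 and 56.6 CPM to 24.5, 18 and 14.7 CPM (-1.70 ± 0.16) and its regulator Nr1h3, which encodes LXR alpha, from 8.45, 8.53 and 5.57 CPM to 1.81, 1.02 and 1.03 CPM (-2.54 ± 0.25). Fabp4, a fatty acid carrier of macrophages, went from 11.1, 11.6 and 7.12 CPM to 1.11, 0.585 and 0.331 CPM (-3.85 ± 0.32). Beside these falls stood those of Marco, Cd5l and Mertk given above, and of Spic (-2.25), the factor of red pulp macrophages, and their part was not tested. Other genes of that marker list rose, among them Slc40a1 (0.48), Hmox1 (0.93) and Axl (0.65), and Adgre1 and Csf1r did not pass. Over its 23 tested genes 7 rose and 12 fell. Plin2, which encodes a coat protein of the droplet, rose from 73.8, 70 and 70.3 CPM to 171, 302 and 557 CPM (2.27 ± 0.32), and Olr1, a receptor for oxidised lipoprotein, by 1.40 ± 0.26. Apoe was at 1778, 1773 and 1979 CPM and 1667, 1698 and 1615 CPM and did not pass (-0.15 ± 0.07, adjusted p = 0.0808). Scd1, the desaturase that makes oleate, was uneven in CIA, at 327, 152 and 45.5 CPM against 585, 521 and 527 CPM (-1.64 ± 0.49; -2.47 without CIA replicate 1, and -1.55 and not past the threshold without CIA replicate 2). In fatty acid synthesis as a whole 5 of 21 rose (23.8%) and 6 fell (28.6%), near the background, or 4 and 6 of the 19 at the filter's level throughout.

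Genes of fatty acid oxidation, the TCA cycle and nucleotide synthesis passed more often as lower than as higher. In fatty acid oxidation 10 of 25 tested genes fell and 5 rose (3 rose without a filter on low counts), with the gatekeeper Cpt1a among the rises (29.6, 31.2 and 31.3 CPM to 44.6, 52 and 53.9 CPM, 0.71 ± 0.10) and peroxisomal Acox3 among the falls (-0.84 ± 0.15). In the TCA cycle 10 of 28 fell and 2 rose. Without control replicate 2 there were 6 falls, and 1 gene rose without control replicate 1, without a filter on low counts and in the fit of 6 libraries. Idh1, the cytosolic NADPH-making isocitrate dehydrogenase, rose by 1.02 ± 0.22, and Pdhx, a part of pyruvate dehydrogenase, fell by 0.82 on the log2 scale. In nucleotide synthesis 15 of 32 fell and 4 rose (median -0.36). Rrm2 and Tyms, which supply deoxynucleotides and thymidylate, went from 11.5, 11.3 and 11.9 CPM to 4.7, 3.77 and 3.71 CPM (-1.51 ± 0.13) and from 12.9, 12.1 and 12 CPM to 6.12, 4.68 and 5.79 CPM (-1.16 ± 0.14).

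NADPH production and its use by the phagocyte oxidase were split. G6pdx and Pgd, the oxidative steps of the pentose phosphate pathway, rose from 83.7, 76.9 and 82.3 CPM to 141, 196 and 285 CPM (1.36 ± 0.20) and from 177, 188 and 198 CPM to 299, 424 and 544 CPM (1.17 ± 0.17). The oxidase's membrane subunit genes Cybb and Cyba fell, Cybb from 651, 640 and 638 CPM to 326, 276 and 319 CPM (-1.07 ± 0.10) and Cyba by 0.95 on the log2 scale. In that list of 15 tested genes 8 rose and 4 fell. Antioxidant genes under NRF2 rose in 17 of 28 tested members and fell in 3 (median 0.56). Nqo1, a quinone reductase, went from 6.2, 5.58 and 8.17 CPM to 12.9, 19.6 and 24.7 CPM (1.52 ± 0.22), Hmox1, heme oxygenase, from 286, 310 and 378 CPM to 440, 553 and 865 CPM (0.93 ± 0.23), and Prdx6 rose by 1.80 ± 0.35 (1.16 without CIA replicate 3). Keap1, the repressor of NRF2, fell by 0.50 on the log2 scale.

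Among genes of arginine and tryptophan use, those named here passed in both directions. Beside Nos2, given above, the arginase genes rose, Arg1 from 1, 0.538 and 0.253 CPM to 5.84, 5.27 and 15.2 CPM (3.81 ± 0.51; 3.16 without CIA replicate 3, 4.40 without control replicate 1) and Arg2 from 19.5, 23.8 and 25.3 CPM to 45.5, 64.5 and 97.3 CPM (1.59 ± 0.23), with 28.1% of the exonic bases of Arg2 shared with another gene. Odc1, the first enzyme of polyamine synthesis, rose by 0.67 ± 0.15. The kynurenine pathway enzymes Kmo and Kynu fell, Kmo from 80.9, 87.3 and 64.2 CPM to 29.5, 16.1 and 2.42 CPM (-2.27 ± 0.58; -3.06 without CIA replicate 1) and Kynu from 15.8, 17.4 and 16.8 CPM to 6.53, 4.59 and 1.65 CPM (-1.96 ± 0.33). Both were lowest in CIA replicate 3, as were the class II sum and the B cell marker sum. In this list 10 of 25 rose and 7 fell, or 9 and 5 of the 22 at the filter's level throughout.

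Among nutrient transporters 21 of 44 rose and 11 fell, or 19 and 11 of the 42 at the filter's level throughout, with 13 higher without control replicate 2. The glucose transporter gene Slc2a1 went from 17.4, 18.9 and 20.7 CPM to 50.6, 69.5 and 115 CPM (2.05 ± 0.25), the zinc transporter gene Slc39a4 from 6.43, 6.74 and 7.85 CPM to 37.4, 52.7 and 76.6 CPM (2.99 ± 0.24) and the GABA and taurine transporter gene Slc6a13 rose by 3.44 ± 0.43 (2.81 without CIA replicate 3). The mitochondrial ADP carrier gene Slc25a4 fell by 1.23 on the log2 scale. In iron and heme handling 7 of 27 rose and 6 fell, or 7 and 5 of the 25 at the filter's level throughout, near the background. Steap4, a metalloreductase, went from 12, 15.4 and 22.8 CPM to 131, 166 and 120 CPM (3.06 ± 0.21), and the neutrophil marker Lcn2, which traps iron-binding siderophores, rose by 1.71 ± 0.16.

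Lysosomal genes passed in both directions, and most autophagy genes that passed were higher. Of 49 tested lysosomal genes 16 fell and 6 rose, with 14 higher without CIA replicate 1 and 12 without a filter on low counts. Ctss, the cathepsin that trims the invariant chain in antigen presenting cells, fell from 824, 724 and 649 CPM to 310, 188 and 122 CPM (-1.82 ± 0.26), beside the lower class II and B cell sums, and the acid phosphatase gene Acp5 by 1.43 on the log2 scale. Tfe3, a factor that drives lysosome genes, rose by 1.11 ± 0.13. Lamp1, a membrane protein used to mark lysosomes, was at 338, 307 and 276 CPM and 248, 287 and 471 CPM and did not pass. In the autophagy list 21 of 39 rose and 2 fell, or 21 and 2 of the 38 at the filter's level throughout (median 0.30 over the 39). The number lower was 6 without CIA replicate 1, 1 without control replicate 3, 4 without a filter on low counts and 1 in the fit of 6 libraries. Bnip3, a hypoxia-inducible receptor for mitochondria, went from 23.9, 25.3 and 33.9 CPM to 82.5, 137 and 162 CPM (2.20 ± 0.22), Wipi1, which binds the forming membrane, from 3.03, 3.59 and 3.13 CPM to 8.2, 12.3 and 10.3 CPM (1.66 ± 0.16), and Map1lc3b, which encodes the LC3B protein, by 0.88 ± 0.13.

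Repair by homologous recombination, which acts in dividing cells, was lower in 22 of 34 tested genes and higher in 2, or 21 and 2 of the 33 at the filter's level throughout (median -0.51). Brca1, which promotes this repair, went from 19.9, 20.3 and 19.3 CPM to 9.7, 7.43 and 6.95 CPM (-1.30 ± 0.14). The nuclease scaffold gene Slx4 rose by 0.59 ± 0.09. Targets of p53 had 9 of 26 higher and 8 lower, or 9 and 8 of the 25 at the filter's level throughout. Mdm2, its ubiquitin ligase, went from 233, 241 and 287 CPM to 451, 564 and 1231 CPM (1.56 ± 0.30) and Cdkn1a, the p21 inhibitor of the cell cycle, rose by 1.08 ± 0.27, while the secreted factor gene Gdf15 fell from 15, 16.7 and 11 CPM to 4.42, 3.95 and 4.96 CPM (-1.68 ± 0.17).

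Genes of cell death were split as well. Of 31 tested 11 rose and 13 fell, with 8 lower without control replicate 1. Bcl2 fell from 90.1, 85.6 and 78.7 CPM to 56.5, 52.5 and 35.3 CPM (-0.82 ± 0.15), whereas Mcl1, a related survival factor, rose from 691, 702 and 779 CPM to 974, 942 and 953 CPM (0.40 ± 0.07). Cycs, the cytochrome c gene, rose by 1.19 ± 0.25. The near-identical survival genes Bcl2a1a and Bcl2a1d, whose reads may be split between copies, were at -2.74 ± 0.24 and -1.67 ± 0.14.

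Chromatin enzymes, splicing factors and the nuclear pore gave counts near the background. Chromatin enzymes had 15 of 55 higher (27.3%) and 17 lower (30.9%), and the number lower was 10 without CIA replicate 2, without control replicate 1 or 2, and in the fit of 6 libraries. Ezh2, the Polycomb methyltransferase, fell from 224, 209 and 225 CPM to 153, 110 and 88.3 CPM (-0.90 ± 0.16) and the DNA methyltransferase gene Dnmt3a from 96.9, 91.8 and 93.2 CPM to 55.8, 46.3 and 43.2 CPM (-0.96 ± 0.10). The H3K4 and H3K27 demethylase genes Kdm5b and Kdm6b rose by 1.56 ± 0.13 and 0.99 ± 0.13. Among SR proteins and hnRNPs, which steer splicing, 9 of 44 rose and 12 fell, or 8 and 12 of the 42 at the filter's level throughout. Hnrnpa1, a splicing repressor, fell from 1711, 1745 and 1435 CPM to 1022, 761 and 630 CPM (-1.02 ± 0.15), and Hnrnpll, which sets CD45 splicing in activated T cells, rose 2-fold. Among pore proteins 6 of 30 rose, or 3 without control replicate 1, and 9 fell. Nup153 rose by 0.87 ± 0.10, and Nup210 fell by 0.78 on the log2 scale. Histone genes, most of whose transcripts lack a poly(A) tail, were tested for only 25 of 80, with 8 higher and 7 lower, or 5 and 6 of the 17 at the filter's level throughout. H1f0, a linker histone, rose from 12.5, 14.6 and 9.81 CPM to 30.2, 49 and 44.1 CPM (1.74 ± 0.19).

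Cytoskeleton and surface glycan genes rose in most members. Of 57 tested genes of the actin cytoskeleton and its regulators 38 rose and 6 fell (median 0.36). Gsn, gelsolin, which cuts filaments, went from 23.8, 23.1 and 28.3 CPM to 117, 166 and 188 CPM (2.65 ± 0.16). Actb, beta actin, often a reference gene, rose from 840, 942 and 1002 CPM to 1214, 1347 and 1251 CPM (0.45 ± 0.08). Acta2, smooth muscle actin and one of the stroma markers, went from 2.63, 3.61 and 3.67 CPM to 20.7, 32.1 and 44 CPM (3.29 ± 0.27), whereas Fscn1, the bundling protein of mature dendritic cells, fell by 1.03 on the log2 scale. Of 52 tested glycosyltransferase genes 29 rose and 9 fell, or 27 and 9 of the 50 at the filter's level throughout (median 0.46), and 14 of the 52 fell without CIA replicate 1. St3gal4 and Fut4, which help build selectin ligands on leukocytes, went from 3.93, 5.02 and 4.34 CPM to 10.2, 12.8 and 13.8 CPM (1.47 ± 0.16) and from 1.55, 1.84 and 1.2 CPM to 2.22, 2.98 and 3.84 CPM (0.96 ± 0.24). The sulfotransferase gene Chst2 rose by 4.29 ± 0.41 (4.88 without control replicate 2), and the branching enzyme gene Gcnt2 by 2.20 ± 0.25.

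Membrane organisers were split, with 13 of 32 tested annexins, galectins and tetraspanins higher and 7 lower. Anxa2, which binds plasminogen and membranes, went from 30.9, 37.5 and 34.9 CPM to 118, 203 and 247 CPM (2.46 ± 0.22), Cd9, a tetraspanin of platelets and other cells, from 37.3, 35.1 and 36 CPM to 82.4, 118 and 180 CPM (1.81 ± 0.23) and Lgals3, galectin 3, from 72, 81.8 and 72.6 CPM to 101, 152 and 269 CPM (1.21 ± 0.27). Anxa4 and Lgals3bp fell, from 57.5, 52.8 and 38.5 CPM to 12.8, 9.86 and 15 CPM (-1.99 ± 0.17) and from 71.2, 61.4 and 53.6 CPM to 14.3, 15.4 and 18.7 CPM (-1.95 ± 0.13). All 14 platelet and megakaryocyte markers were tested and 11 rose, with sums of 64.2 to 65.7 CPM in control and 126 to 199 CPM in CIA.

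Developmental pathways held both rises and falls. In the TGF-beta and BMP list 16 of 39 rose and 6 fell, or 14 and 5 of the 31 at the filter's level throughout (median 0.31), and 3 of the 39 fell without control replicate 1. Acvrl1, a type I receptor of endothelial cells, went from 2.48, 4.2 and 3.61 CPM to 20.8, 31.8 and 43.4 CPM (3.22 ± 0.28) and Lrrc32, the GARP protein that presents latent TGF-beta, from 1.73, 2.02 and 1.46 CPM to 5.5, 9.3 and 11.1 CPM (2.31 ± 0.25). The ligand gene Tgfb1 did not pass, at 74.1, 67.9 and 66.8 CPM and 66.1, 59.8 and 71.7 CPM. In the Wnt list 10 of 33 rose (30.3%) and 8 fell (24.2%), near the background, or 9 and 7 of the 28 at the filter's level throughout. Sostdc1, a secreted antagonist of Wnt and BMP, went from 0.1, 0.102 and 0.127 CPM, or 4, 4 and 4 counts, to 4.61, 8.48 and 13.6 CPM (6.31 ± 0.48). Axin2, a target of the pathway, rose by 1.46 ± 0.18, and Wnt10b fell by 1.31 on the log2 scale. In the Notch list 9 of 28 rose and 5 fell, or 9 and 4 of the 27 at the filter's level throughout, and 3 of the 28 fell without CIA replicate 2 or control replicate 2. Notch1 went from 41.4, 40 and 45.9 CPM to 62.3, 75.2 and 84.3 CPM (0.80 ± 0.11), and Dtx1, a Deltex ligase and Notch target, from 182, 185 and 217 CPM to 148, 93.7 and 52.3 CPM (-0.99 ± 0.28).

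Guidance, nucleotide and lipid receptors showed mixed calls. Semaphorins, plexins and ephrins had 12 of 31 higher and 9 lower, and of the 20 at the filter's level in every library 9 rose and 6 fell. Ephb6, a kinase-dead ephrin receptor of T cells, rose from 0.575, 0.922 and 0.506 CPM to 3.75, 6.32 and 4.73 CPM (2.87 ± 0.30), against the fall in Plxna1 from 136, 131 and 117 CPM to 25.7, 18.1 and 26.2 CPM. In purinergic signalling 8 of 25 rose and 2 fell, or 6 and 2 of the 19 at the filter's level throughout, and 4 of the 25 fell without CIA replicate 1. Nt5e, the ectonucleotidase CD73 that makes adenosine, went from 10.8, 11.6 and 11.9 CPM to 21.8, 35 and 33.4 CPM (1.39 ± 0.16), and Dpp4, another gene of the list, from 76.1, 81.1 and 66.7 CPM to 35.4, 26.4 and 11.5 CPM (-1.61 ± 0.31). In the sphingolipid list 7 of 31 rose (22.6%) and 8 fell (25.8%), near the background. Sgms2 and Degs1, enzymes of sphingomyelin and ceramide synthesis, were at 1.59 ± 0.18 and 1.57 ± 0.25. In cAMP and RGS signalling 16 of 41 rose and 12 fell, or 14 and 12 of the 39 at the filter's level throughout. Crem, an inducible cAMP response modulator, went from 12.2, 11.5 and 11.9 CPM to 35.2, 54.1 and 77.8 CPM (2.23 ± 0.23), and the adenylyl cyclase gene Adcy6 fell by 1.12 on the log2 scale.

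Ion channels and nuclear receptors close the set of lists. Of 46 tested channel and pump genes 14 rose (30.4%) and 11 fell (23.9%), near the background, or 12 and 9 of the 39 at the filter's level throughout. Fxyd2, the gamma subunit of the sodium pump, went from 0.15, 0.0512 and 0.127 CPM (counts of 6, 2 and 4) to 6.06, 6.49 and 30.5 CPM (6.99 ± 1.07; 5.81 without CIA replicate 3), so its fitted fold rests on few control reads. Ryr3, a calcium release channel, went from 2.75, 2.46 and 2.15 CPM to 7.28, 21.5 and 32.4 CPM (3.05 ± 0.43), and the sodium-calcium exchanger gene Slc8a1 from 6.7, 7.58 and 5.06 CPM to 2, 1.58 and 1.72 CPM (-1.87 ± 0.17). Of 34 nuclear receptors and cofactors 17 rose and 6 fell, or 15 and 6 of the 31 at the filter's level throughout. Rarg, a retinoic acid receptor gene, rose by 1.31 ± 0.18. The repressor of the aryl hydrocarbon receptor, Ahrr, fell from 6.78, 4.76 and 10.6 CPM to 2.78, 2.57 and 2.85 CPM (-1.43 ± 0.25).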

How the data were processed

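Stranded mRNA libraries were sequenced in pairs, per the labels' protocols. The authors deposited raw counts per gene, made with featureCounts (Subread 1.5.1) after trimming with Trimmomatic 0.36, per the submitters' processing notes. Those notes name build mm39, whereas the labels' protocols name the hamster reference CHOK1GS and an aligner written as STRA 2.5.3a. The deposited table holds mouse genes, and the strand setting of the counting is not given in the sources used here, so genes that overlap others, antisense genes and near-identical copies are uncertain. Of values from 1 to 10, 73.8% were even (52.6% of values from 201 to 1000), so counts may not be single fragments.

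From the deposited counts, genes were filtered with filterByExpr, scaled by TMM (factors 0.95 to 1.02) and tested with edgeR's quasi-likelihood test (edgeR 4.0.16, R 4.3.3) over all 9 libraries, CIA against control, with Benjamini-Hochberg adjustment over 19348 genes. Replicate pairs differed beyond counting noise (chi-square per degree of freedom 6.73 to 114), so each counted as 1 sample. On simulated data 28%, 74%, 78% and 98% of genes changed by 1.5, 2, 4 and 8-fold were called, and 7 of 19148 unchanged genes. Far fewer genes changed there than the 51.1% called in the data, so its adjusted threshold was stricter and these rates do not carry over.

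Named genes were the 15 largest rises and 15 largest falls among called genes whose 6-library mean reached 10 CPM and whose groups do not overlap (clone names, pseudogenes, receptor segments and the marker, helper T cell and interferon lists left out), and up to 2 of each per list with at least 2 CPM. These 238 are thus extreme members of their lists. A further 64, with Col1a2, Col4a2 and the splits of the marker lists, were chosen after their values were seen. Some of these genes are not reported here. Members and lists were chosen with earlier results of these data known. Alternatives were other scalings (DESeq2 1.42.0 size factors, upper quartile), the DESeq2 test, other count filters, only the 6 libraries, a replicate block, removal of overlapping genes, and leaving out each library.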

Additional observations from a re-analysis of the deposited data

How the results depend on the processing

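The number of genes past the threshold, 9886, was 8262 to 9950 under the alternatives that keep every replicate and 8073 (without control replicate 2) to 11065 (without CIA replicate 1) when 1 library was left out, all within 1.5 times. The share of called genes that were higher was 52.1%, and 50.6% to 53.3% under the alternatives. No scaling moved the median of all genes by more than 0.02 on the log2 scale. Of 302 named genes 294 passed the threshold, and 276 of those passed in the same direction under every alternative that gave them a value, while 18 lost the call under at least 1. Of 1568 counts of list members under an alternative 1494 were within 1.5 times of the main count. The correlation of deviations between same-numbered libraries was 0.063, 0.032 and 0.051, and between differently numbered libraries -0.057 to 0.002. All are close to 0, but the same-numbered ones are the highest, so these values do not settle whether the replicate numbers pair the libraries. With the replicate number as a block 9794 genes passed, 9494 of them shared with the main result, and among the named genes Myc passed at -0.40. The mapping reference, the counting of strands and the origin of the replicates limit single genes, and the low Cd4 level in the libraries labelled control limits every comparison as a contrast of CD4+ cells. The CIA libraries share that limit, with a T cell marker sum of 788 to 1260 CPM. Their neutrophil and B cell sums were 7379 to 12333 CPM and 2049 to 5426 CPM. Sums over different genes are not cell fractions. In the simulation most 1.5-fold changes were missed, but few genes changed there, so that rate does not carry over to these data. Smaller changes did pass here, such as Psmd4 at 0.30 on the log2 scale.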

Other observations

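Erythroid and cytotoxic cell markers were not part of the gene groups above. Of 14 tested erythroid markers 5 rose and 0 fell, and their sum was 12.9 to 21.9 CPM in the libraries labelled control and 71.4 to 83.1 CPM in CIA. Of 13 CD8 T and NK cell markers 4 rose and 5 fell, with sums of 76.7 to 101 CPM in control and 54 to 72.2 CPM in CIA. Car2, carbonic anhydrase 2, is one of the erythroid markers and stood at 4.1, 5.43 and 10 CPM in control and 40.7, 24.1 and 20.4 CPM in CIA. Each CIA library was above control, and CIA replicate 1 was the highest.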
